A study of Rattus norvegicus with 8 samples.

Results

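The enzymes and transporters that make, package, recapture and break down dopamine were followed in the rat *substantia nigra* (SN) as a set of 9 genes. These are *Th*, *Ddc*, *Slc6a3*, *Slc18a2*, *Gch1*, *Pts*, *Qdpr*, *Maoa* and *Maob*. Their probes were found by the RefSeq accession printed on the array, which gave 12 of the 45598 probes and 9 of the 16678 genes that a probe could be named for. *Ddc* had 4 probes and each other gene had 1. Every probe had 1 spot on each array.

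The rats were female Sprague Dawley, 3 months old at the start, and received a unilateral injection of an adeno-associated virus (AAV6) into the SN. In the AAV-αSyn group the vector carried wild-type human α-synuclein at 5.2e10 vg/µL (vector genomes per microlitre), and in the AAV-Null group a null control vector was given at 5.3e9 vg/µL. The transgene and the dose of vector therefore cannot be told apart. The methods assign 10 rats to each group, and the SN of the injected side was taken 20 weeks after surgery. Of each group, 4 SN samples were hybridised to 1 array each. The methods mention 3 biological replicates per group for the arrays where 4 samples per group were deposited, so it is not stated that all 4 came from separate rats.

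Dopamine is made from tyrosine in consecutive steps. Tyrosine hydroxylase, the rate-limiting enzyme encoded by *Th*, makes L-DOPA with tetrahydrobiopterin (BH4) as cofactor, and aromatic L-amino acid decarboxylase, encoded by *Ddc*, turns L-DOPA into dopamine. The vesicular monoamine transporter (*Slc18a2*) loads dopamine into synaptic vesicles, the dopamine transporter (*Slc6a3*) takes it back up from the extracellular space, and the monoamine oxidases (*Maoa*, *Maob*) break it down. GTP cyclohydrolase (*Gch1*) and 6-pyruvoyltetrahydropterin synthase (*Pts*) make BH4, and dihydropteridine reductase (*Qdpr*) recycles it. The dopaminergic neurons of the SN that project to the striatum carry *Th*, *Slc6a3* and *Slc18a2*, and loss of these neurons is the hallmark of Parkinson's disease.

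The sequences around the annotated starts of the genes for the first enzyme and for both transporters are shown. Dopaminergic neurons of the SN carry these 3 genes, and each gene had the lower mean in the AAV-αSyn group. Each sequence is the 300 bases from upstream of the start to just inside the transcript, in the direction of transcription, from RefSeq on the rat assembly GRCr8. Capitals mark TGACGTCA, the full cAMP response element, which reads the same on both strands. The *Th* promoter is chr1:207508169-207508468 on the minus strand, the *Slc18a2* promoter is chr1:268399771-268400070 on the plus strand and the *Slc6a3* promoter is chr1:31578913-31579212 on the minus strand.
Th: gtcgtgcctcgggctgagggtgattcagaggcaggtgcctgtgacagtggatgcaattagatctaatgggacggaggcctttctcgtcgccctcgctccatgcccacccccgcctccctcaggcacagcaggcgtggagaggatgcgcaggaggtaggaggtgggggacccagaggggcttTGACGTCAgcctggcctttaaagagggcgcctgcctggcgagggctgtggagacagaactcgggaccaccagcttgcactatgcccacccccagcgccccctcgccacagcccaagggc
Slc18a2: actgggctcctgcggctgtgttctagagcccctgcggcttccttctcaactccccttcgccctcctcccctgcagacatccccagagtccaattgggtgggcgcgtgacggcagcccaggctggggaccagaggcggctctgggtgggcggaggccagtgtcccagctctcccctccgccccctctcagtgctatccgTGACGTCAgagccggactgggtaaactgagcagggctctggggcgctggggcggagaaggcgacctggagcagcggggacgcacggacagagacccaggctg
Slc6a3: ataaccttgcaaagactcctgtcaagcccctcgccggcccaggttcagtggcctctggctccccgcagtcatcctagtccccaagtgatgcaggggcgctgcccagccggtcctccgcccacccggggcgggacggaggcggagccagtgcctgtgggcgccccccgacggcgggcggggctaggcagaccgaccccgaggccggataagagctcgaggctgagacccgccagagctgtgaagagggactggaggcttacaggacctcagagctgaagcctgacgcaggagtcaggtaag
Counted to its first base from the start annotated in RefSeq, the element lay at −69 in *Th* and at −52 in *Slc18a2*. These letters were not found in the *Slc6a3* window. They were found in 612 of 33469 rat promoters of the same length (1.83%) and in 2 of the 11 promoters annotated for the 9 genes. *Ddc* has 3 annotated starts, none of which is printed, and 1 of them held AAGGTCA, the core of the NGFI-B response element, on either strand. That motif was found in 1543 promoters (4.61%). The CCAAT box was found on either strand in 12549 promoters (37.5%) and in 6 of the 11, which belong to *Ddc*, *Slc18a2*, *Gch1*, *Qdpr*, *Maoa* and *Maob*. A match of letters is a description of the sequence and not evidence of binding.

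All 8 arrays lay on 1 slide and were read in 1 scan, with 74.8% to 77.5% of their spots well above background. Of the 12 probes, 11 were well above background on all 8 arrays and were tested. The other one, a *Ddc* probe (A_44_P1088341), was well above background on 0 arrays, with an intensity between 4.12 and 15.7. No member spot was marked as an outlier and none was saturated, including *Th*, whose intensity ran from 60136 to 108555. Values below are quantile-normalised log2 intensities, fold changes are AAV-αSyn minus AAV-Null on that scale, and *Ddc* is represented by its brightest probe. Group differences come from limma's moderated test at 33853 probes, with a Benjamini–Hochberg adjustment across all of them.

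*Th*, *Ddc* and *Slc6a3* were lower in the AAV-αSyn group and *Maob* was higher, each with an unadjusted p under 0.05. None of the 9 genes was past the adjustment, with adjusted p-values from 0.484 to 0.987. Thus 3 of 9 genes had an unadjusted p under 0.05 in the lower direction, where 2.32% of all probes tested did, and 1 of 9 in the higher direction, where 3.31% did (5.64% in either direction). An adjusted p under 0.05 was reached by 0.0148% of all probes, every one of them higher and 0% lower. The median log2 fold change of the 9 genes was 0.03, beside 0.01 for all probes, as 4 genes had lower and 5 had higher means. The groups did not overlap for *Th* and *Ddc* (lower, as for 1.26% of all probes) or for *Maob* (higher, as for 2.57%), where 3.83% of all probes had groups that did not overlap in either direction.

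**Figure D1:**
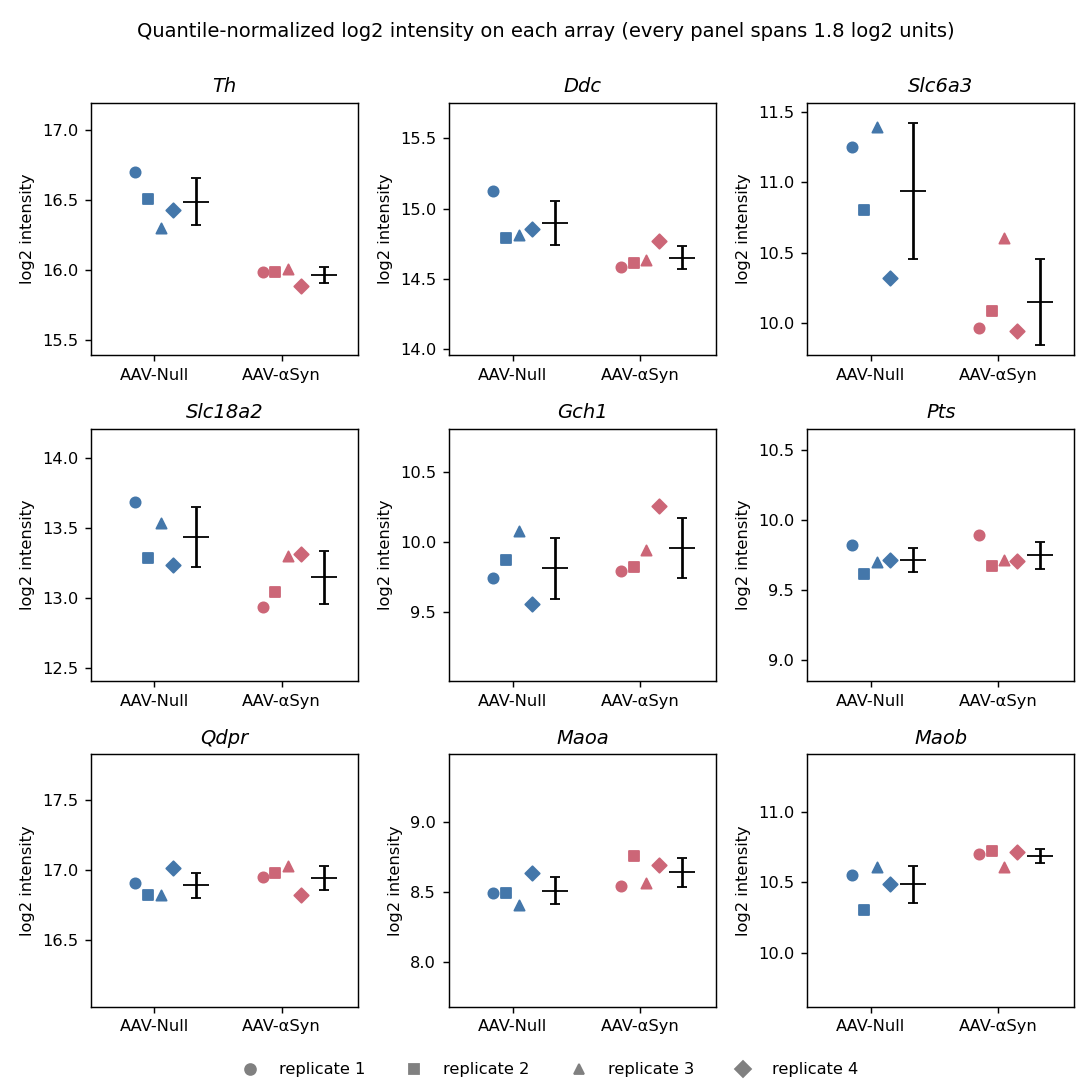
Quantile-normalised log2 intensity of the brightest probe of each of the 9 genes on each array, AAV-Null in blue and AAV-αSyn in red, with the symbol giving the replicate number and the black bar the mean ± SD of 4 arrays. All panels span the same range, and the AAV-αSyn arrays lie below all AAV-Null arrays for *Th* and *Ddc* and above them for *Maob*.

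Among the synthetic enzymes, *Th* (A_64_P039656, NM_012740) had log2 intensities of 16.70, 16.51, 16.30 and 16.43 on AAV-Null replicates 1 to 4. On AAV-αSyn replicates 1 to 4 it had 15.99, 15.99, 16.01 and 15.88. The highest AAV-αSyn array was thus below the lowest AAV-Null array, replicate 3. The *Th* signal of the AAV-αSyn group was 69.8% of that of the AAV-Null group (95% interval 59.9% to 81.3%, n = 4 arrays each, unadjusted p = 0.000604 and adjusted p = 0.484 by limma), and *Th* ranked 42 of all probes by p. Its SD among the AAV-Null arrays was 2.97 times that among the AAV-αSyn arrays (0.17 and 0.056), a ratio that was not tested. In bulk tissue, fewer dopaminergic neurons in the sample, whether lost or not dissected, and less RNA per neuron cannot be told apart.

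*Ddc* (A_43_P14910, NM_012545) had log2 intensities of 15.13, 14.79, 14.81 and 14.85 in the AAV-Null group. In the AAV-αSyn group it had 14.58, 14.61, 14.63 and 14.77. The groups did not overlap, but a gap of only 0.02 on the log2 scale separated the highest AAV-αSyn array, replicate 4, from the lowest AAV-Null array, replicate 2. AAV-Null replicate 1 stood above the rest of its group. *Ddc* signal in the AAV-αSyn group was 84.3% of that in the AAV-Null group (95% interval 72.3% to 98.2%, unadjusted p = 0.0327 by limma). Without AAV-Null replicate 1 its log2 fold change was −0.17 (unadjusted p = 0.0709 by limma), and p was also over 0.05 without AAV-αSyn replicate 1, 2 or 3, at −0.22, −0.24 and −0.24. With the slide row as a block the log2 fold change stayed at −0.25 and the unadjusted p was 0.0634. The dimmer *Ddc* probes that were tested, A_64_P029797 and A_44_P1112816, overlapped between the groups. Their signal in the AAV-αSyn group was 85.5% and 81.0% of that in the AAV-Null group, so 3 of 3 tested *Ddc* probes had the lower mean there.

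The dopamine transporter gene *Slc6a3* (A_64_P063214, NM_012694) had the largest difference of the 9 genes and the widest spread. Its log2 intensity was 11.25, 10.80, 11.39 and 10.32 in the AAV-Null group. It was 9.96, 10.09, 10.60 and 9.94 in the AAV-αSyn group. The groups overlapped because AAV-Null replicate 4 was below AAV-αSyn replicate 3, the highest of its group. The AAV-αSyn signal was 57.7% of the AAV-Null signal (95% interval 38.5% to 86.7%, unadjusted p = 0.0142 and adjusted p = 0.747 by limma). By the exact permutation test (two-sided) its p was 0.0571. The SD of the AAV-Null arrays, 0.49, was the highest of any member in either group.

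The vesicular transporter gene *Slc18a2* (A_44_P170382, NM_013031) had log2 intensities of 13.69, 13.29, 13.54 and 13.24 in the AAV-Null group. In the AAV-αSyn group they were 12.94, 13.05, 13.30 and 13.31. AAV-αSyn replicates 3 and 4 lay above AAV-Null replicates 2 and 4, so the groups overlapped. The AAV-αSyn signal was 81.9% of the AAV-Null signal, with a 95% interval of 66.1% to 101.6% that includes no difference (unadjusted p = 0.0653 by limma). Its exact permutation p was 0.171 (two-sided), where 0.0286 is the smallest that 4 arrays against 4 allow. With single arrays left out, the log2 fold change ran from −0.35 without AAV-Null replicate 4 (unadjusted p = 0.0378 by limma) to −0.21 without AAV-Null replicate 1 (0.164), and it was −0.19 with array weights (0.154).

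Of the 3 members that serve the cofactor BH4, none had an unadjusted p under 0.05. *Gch1* (A_64_P138216, NM_024356), the first enzyme of BH4 synthesis, had log2 intensities of 9.74, 9.87, 10.08 and 9.56 in the AAV-Null group. It had 9.79, 9.83, 9.94 and 10.26 in the AAV-αSyn group. The groups overlapped almost wholly, with AAV-αSyn replicate 4 above all other arrays. The log2 fold change of *Gch1* was 0.14 (95% interval −0.19 to 0.47, unadjusted p = 0.349 by limma), and it ran from 0.04 without AAV-αSyn replicate 4 to 0.23 without AAV-Null replicate 3, with 0.06 without AAV-Null replicate 4. *Pts* (A_43_P11865, NM_017220) ranged from 9.62 to 9.82 in the AAV-Null group and from 9.68 to 9.89 in the AAV-αSyn group. A log2 fold change of 0.03 was found (95% interval −0.15 to 0.22), and its sign turned without AAV-Null replicate 2 or AAV-αSyn replicate 1. *Qdpr* (A_43_P12219, NM_022390) ranged from 16.82 to 17.01 and from 16.83 to 17.03 in these groups, almost the same range. Its log2 fold change was 0.05 (95% interval −0.13 to 0.24), with 0.03 without AAV-αSyn replicate 3, 0.10 without AAV-Null replicate 4 and 0.11 in the deposited matrix.

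The monoamine oxidases had the higher mean in the AAV-αSyn group. *Maob* (A_64_P061797, NM_013198), the form found chiefly in glia and serotonergic neurons, had log2 intensities of 10.55, 10.30, 10.61 and 10.49 in the AAV-Null group. It had 10.71, 10.73, 10.61 and 10.71 in the AAV-αSyn group. The groups did not overlap, but the lowest AAV-αSyn array and the highest AAV-Null array, each replicate 3, lay only 0.0063 apart on the log2 scale. The AAV-αSyn signal was 115.1% of the AAV-Null signal (95% interval 100.6% to 131.7%, unadjusted p = 0.0432 and adjusted p = 0.868 by limma). That unadjusted p was over 0.05 when any of 6 of the 8 arrays was left out, namely AAV-Null replicate 2 or 4 or any AAV-αSyn array (0.0521 to 0.122). The log2 fold change, 0.20 with all arrays, was 0.14 without AAV-Null replicate 2 and from 0.19 to 0.23 without any other of these 6. Limma's unadjusted p for *Maob* was also over 0.05 with the slide row as a block (0.0857 at an unchanged 0.20), with cyclic loess (0.0754) and in the deposited matrix (0.0515). *Maoa* (A_44_P264292, NM_033653), the form found chiefly in catecholaminergic neurons, had 8.50, 8.50, 8.41 and 8.64 in the AAV-Null group and 8.55, 8.76, 8.57 and 8.69 in the AAV-αSyn group. The groups overlapped through AAV-Null replicate 4, and the log2 fold change was 0.13 (95% interval −0.06 to 0.32, unadjusted p = 0.155 by limma).

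**Figure D2:**
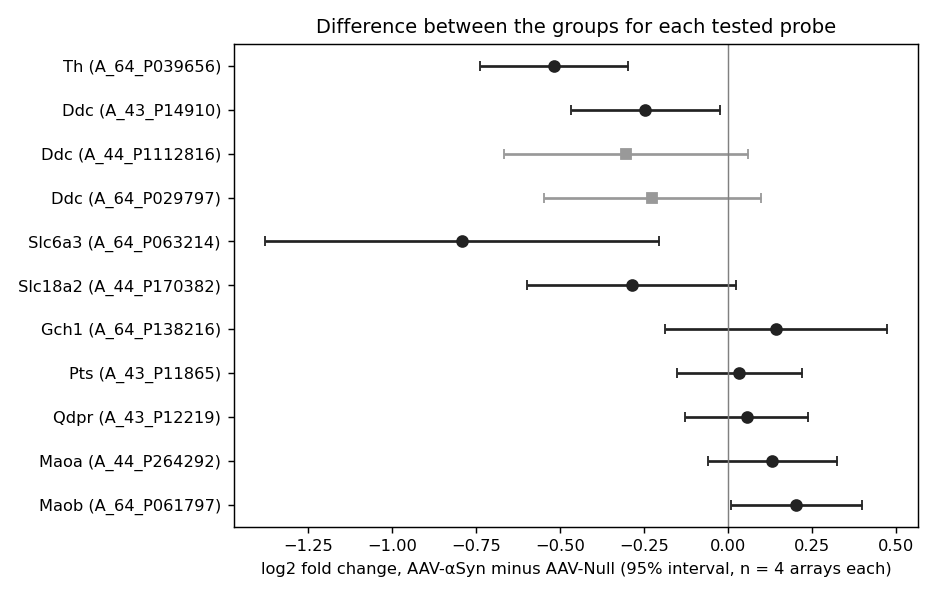
Log2 fold change (AAV-αSyn minus AAV-Null) of the 11 tested probes with its 95% interval from limma, 4 arrays in each group. Grey squares are the dimmer *Ddc* probes. Intervals of *Th*, *Slc6a3* and the brightest *Ddc* probe lie below 0 and that of *Maob* just above it.

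Whether *Th* differed between the groups by more than the other genes did was asked within each array, by subtracting the log2 value of the other gene from that of *Th* and comparing this difference between the groups. This removes whatever an array does to all its probes alike. The 8 comparisons were made by exact permutation tests (two-sided) with Benjamini–Hochberg adjustment over the 8. They share the same *Th* values and are not independent. *Th* alone had an exact permutation p of 0.0286, the smallest that 4 arrays against 4 allow. Relative to *Qdpr* on the same array, *Th* was lower in the AAV-αSyn group by a log2 difference of −0.57 (SE 0.090, exact p = 0.0286, adjusted p = 0.0381). Before this subtraction the difference of *Th* was −0.52. Relative to *Pts*, *Maoa*, *Maob* and *Gch1* the differences were −0.55, −0.65, −0.72 and −0.66, with the same exact p of 0.0286. The comparison with *Gch1* was over the threshold (exact p = 0.0571) with normexp background correction, in the deposited matrix and without any 1 of the 4 AAV-αSyn arrays, at shifts of −0.59, −0.61 and from −0.72 to −0.54. With the main processing and all 8 arrays, the groups did not overlap in any of the comparisons with *Qdpr*, *Pts*, *Maoa*, *Maob* and *Gch1*.

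*Th* was also lower relative to *Ddc*, the next enzyme of the pathway. Its *Th* minus *Ddc* difference was 1.57, 1.72, 1.49 and 1.58 on the AAV-Null arrays. The AAV-αSyn arrays had 1.41, 1.37, 1.38 and 1.12, all below the lowest AAV-Null array. The shift between the groups was −0.27 (SE 0.083, exact permutation p = 0.0286, adjusted p = 0.0381). Relative to the transporters no such separation was found. The shift was −0.23 relative to *Slc18a2* (SE 0.15, exact p = 0.2) and 0.27 relative to *Slc6a3* (SE 0.29, exact p = 0.4), and both sets of arrays overlapped. With single arrays left out, the shift relative to *Slc18a2* ran from −0.33 to −0.15, the latter without AAV-αSyn replicate 4, and that relative to *Slc6a3* from 0.06 without AAV-Null replicate 3 to 0.47 without AAV-Null replicate 4. Of the 8 comparisons, which share the same *Th* values, 6 were therefore past the threshold after adjustment, and 5 were with normexp or the deposited matrix. With the slide row or the side as a block 0 of 8 were, since those designs allow no exact p under 0.125 and 0.0556. Without AAV-αSyn replicate 4, 0 of 8 were, and 3 (*Pts*, *Qdpr* and *Maoa*) had an unadjusted exact permutation p under 0.05. With any 1 array left out, the shifts relative to these 3 ran from −0.61 to −0.51, −0.63 to −0.51 and −0.70 to −0.57.

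**Figure D3:**
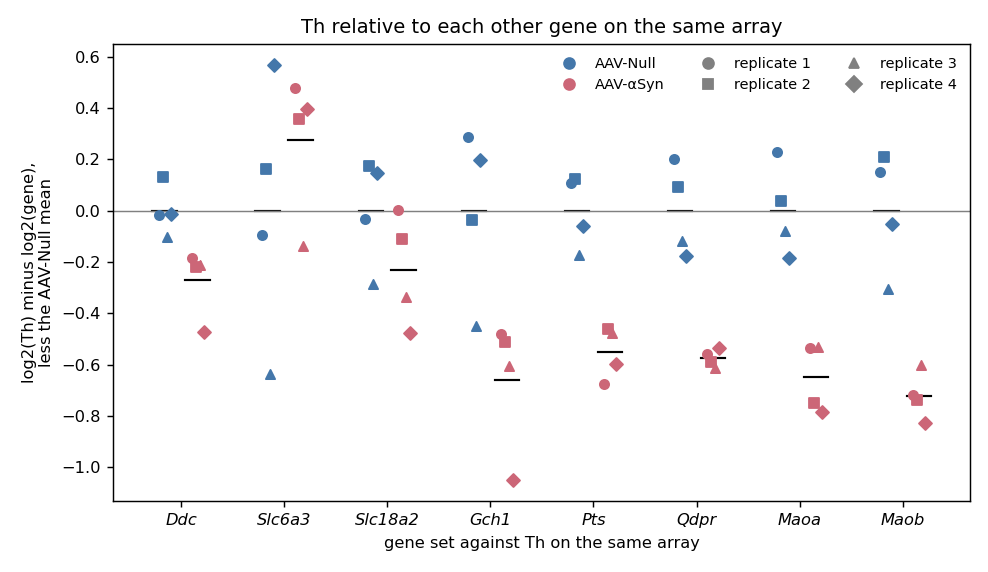
Log2 intensity of *Th* minus that of each other gene on the same array, with the AAV-Null mean of each comparison set to 0. Points are arrays, symbols give the replicate number and short bars the group means. The AAV-αSyn arrays lie below all AAV-Null arrays in every comparison but those with *Slc6a3* and *Slc18a2*.

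The arrays lie in 4 rows and on 2 sides of the slide. A row holds the AAV-αSyn and the AAV-Null array with the same replicate number, and each side holds 2 arrays of each group. Within rows 1 to 4, *Th* was lower on the AAV-αSyn array by log2 differences of −0.72, −0.52, −0.29 and −0.55. *Ddc* and *Slc6a3* were lower on the AAV-αSyn array in 4 of 4 rows too, and *Slc18a2* in 3 of 4. *Maoa* and *Maob* were higher in 4 of 4 rows, *Maob* by only 0.01 in row 3. Row 1 held the largest difference of *Th* and of each of the other 3 genes with a lower mean, −1.29 for *Slc6a3*, −0.75 for *Slc18a2* and −0.55 for *Ddc*.

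Between the sides, *Th* had nearly the same difference, −0.47 on side 1 and −0.57 on side 2. *Slc6a3* did not, with −0.28 on side 1 and −1.31 on side 2, and *Slc18a2* had −0.14 and −0.43. *Ddc* had −0.21 and −0.28, and *Maob* had 0.27 and 0.14. For *Pts* (0.14 and −0.07) and *Maoa* (−0.01 and 0.27) the sign differed between the sides. The part of the slide in these results was not tested beyond these values and the block described with the processing alternatives.

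**Figure D4:**
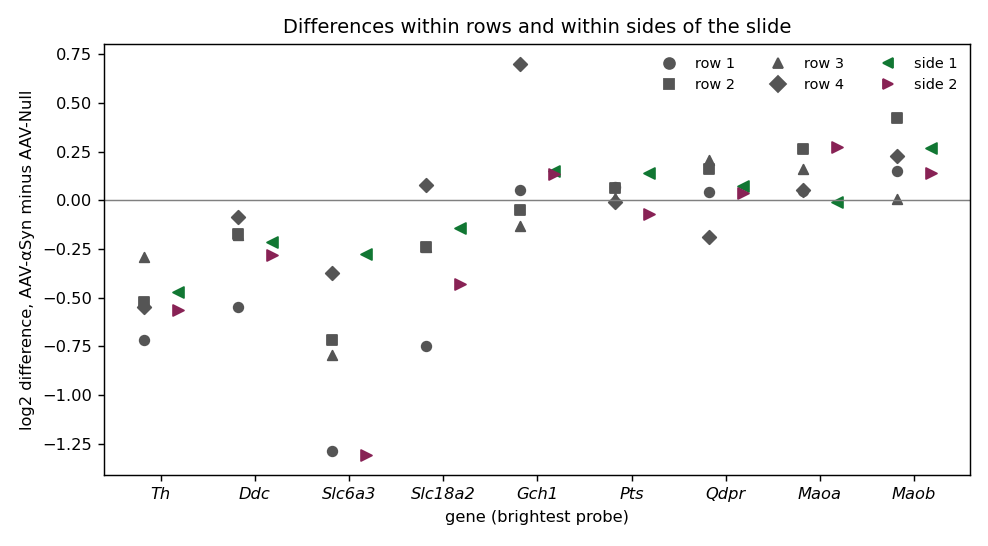
Log2 difference (AAV-αSyn minus AAV-Null) of each gene within the 4 rows of the slide, 1 array of each group per row, and within its 2 sides, 2 arrays of each group per side. *Th*, *Ddc* and *Slc6a3* are below 0 in every row and on both sides.

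How the genes varied together from array to array was described after each group's mean was subtracted. The deviations of *Slc18a2* over the 8 arrays had a Pearson r of 0.722 with *Ddc* and of 0.714 with *Slc6a3*. *Th* had 0.564 with *Ddc*, 0.152 with *Slc6a3* and 0.194 with *Slc18a2*. For example, AAV-Null replicate 3 had the lowest *Th* and the highest *Slc6a3* of its group. AAV-αSyn replicate 4 had the highest *Ddc*, *Slc18a2* and *Gch1* of its group and the lowest *Th* and *Slc6a3*. The most negative value was −0.844, between *Gch1* and *Qdpr*. These correlations are descriptions over 8 arrays that share 1 normalisation. Among 17514 named probes, those whose deviations were most like those of *Th* were for *Olig1* (r = 0.98), *Pde8a* (0.977), *Zfp874b* (0.973), LOC102548289 (0.968) and *Adipor2* (0.964). *Ddc*, the closest member, ranked 2309 on this list.

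The other genes of the pathway were lists of 4 BH4 genes, 5 breakdown genes and 5 monoamine transporters, and 0 of them were past the adjustment. Of the BH4 genes, *Pcbd2* had no named probe and 3 were tested, with a median log2 fold change of −0.09. *Spr* (−0.09) and *Pcbd1* (−0.15) had the lower mean in the AAV-αSyn group. *Gchfr*, the feedback regulator that binds GTP cyclohydrolase, was the exception. It had log2 intensities of 11.20, 10.97, 12.15 and 11.12 in the AAV-Null group and 12.11, 12.21, 11.67 and 12.61 in the AAV-αSyn group. Only AAV-Null replicate 3 reached the range of the AAV-αSyn arrays. Its log2 fold change was 0.79 (SE 0.29, unadjusted p = 0.0253, adjusted p = 0.83 by limma), and the exact permutation p was 0.0857. With *Gch1* at 0.14, the BH4 genes included here, members and others, comprised 2 with a lower and 4 with a higher mean.

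Serotonergic neurons also make BH4, and their markers are given beside *Gchfr*. *Tph2*, which makes serotonin in neurons, had 8.32, 8.12, 10.61 and 8.99 in the AAV-Null group and 11.16, 11.51, 10.59 and 12.19 in the AAV-αSyn group. All 6 serotonergic markers had the higher mean in the AAV-αSyn group. *Tph2* (log2 fold change 2.35) and *Slc6a4* (2.30) had an unadjusted p under 0.05 by limma, as 3.31% of all probes tested did in the higher direction. The differences of *Gata2* (0.04), *Htr1a* (0.12) and *Gata3* (0.15) were the smallest of the 6. The median log2 fold change was 0.81 over all 6 and 0.15 over the 5 that were above background on all 8 arrays, which leave out *Fev*. Their summed signal, as log2, was 9.79 to 11.49 on the AAV-Null arrays, highest on replicate 3, and 11.25 to 12.59 on the AAV-αSyn arrays. *Ddc*, *Slc18a2*, *Maob* and the BH4 genes are also used by serotonergic neurons, and *Th* and *Slc6a3* are not. The part of serotonergic RNA in the values of the shared genes was not tested. Whether the dissected tissue differed between the groups, which would bear on *Th* and *Slc6a3* too, was not tested either.

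Breakdown genes other than the monoamine oxidases had a median of −0.10 over 5 tested and of −0.15 over the 4 above background on all 8 arrays, with *Aldh1a1* at −0.19, *Aldh2* at −0.10, *Sult1a1* at −0.46 and *Akr1b1* at 0.03. All of these had unadjusted p-values over 0.05. *Dbh*, which turns dopamine into noradrenaline, was well above background on 0 of 4 AAV-Null and on 3 of 4 AAV-αSyn arrays. Of the other noradrenergic markers, *Slc6a2* was well above background on 3 of 8 arrays, *Phox2a* was above background on 0 arrays and was not tested, and *Pnmt* had a log2 fold change of −0.07. Among the other transporters, 4 of 5 had the higher mean and the serotonin transporter *Slc6a4* (2.30, unadjusted p = 0.0162 by limma) was the only one with p under 0.05.

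Dopaminergic markers that are not members were above background on all 8 arrays for 11 of 12 genes, the exception being *En1*, which had no named probe. In the AAV-αSyn group 9 of the 11 had the lower mean, with a median log2 fold change of −0.33. *Pitx3* (−0.78), a transcription factor of midbrain dopaminergic neurons, *Chrna6* (−0.56), a nicotinic receptor subunit, and *Drd2* (−0.33), the autoreceptor, had an unadjusted p under 0.05. In this lower direction 2.32% of all probes tested did, and no marker did in the other. Of these 3, the groups did not overlap for *Drd2* (lower, as for 1.26% of all probes). They overlapped for *Pitx3* and *Chrna6*, with exact permutation p-values of 0.0571 and 0.0857. *En2* (0.32) and *Sncg* (0.11) had the higher mean. The summed signal of the dopaminergic list overlapped between the groups, from 15.38 to 15.86 as log2 in the AAV-Null group and from 15.18 to 15.59 in the AAV-αSyn group. Lists of astrocyte, oligodendrocyte, microglial and endothelial markers had medians of 0.04, 0.05, 0.01 and 0.05, and 0 of their genes had an unadjusted p under 0.05.

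**Figure D5:**
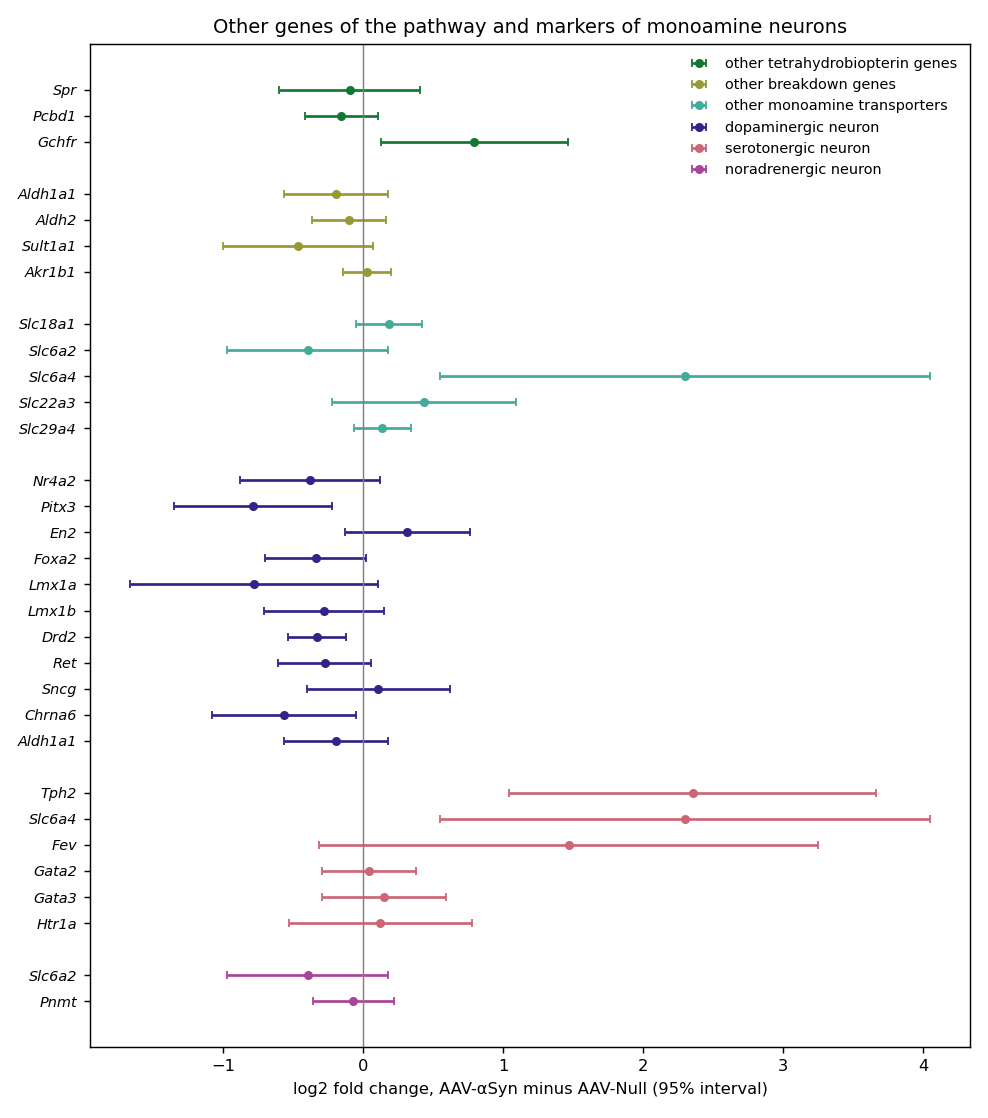
Log2 fold change (AAV-αSyn minus AAV-Null) with its 95% interval from limma for the other genes of the pathway and the markers of monoamine neurons, by list. *Aldh1a1*, *Slc6a2* and *Slc6a4* belong to 2 lists, and *Dbh* is left out because no AAV-Null array was above background. *Pitx3*, *Drd2* and *Chrna6* lie below 0 and *Gchfr*, *Tph2* and *Slc6a4* above it.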

How the data were processed

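RNA of 8 rat SN samples, 4 per group, was labelled with Cy3 and hybridised to 8 one-colour Agilent rat arrays on 1 slide. The authors deposited scanner files in which each spot's intensity, in arbitrary units, is background-corrected within the array by Agilent Feature Extraction (12.0.3.2 in the file headers, 11.5.1.1 in the submitters' processing notes) and not scaled between arrays. They also deposited a matrix of quantile-normalised log2 values for every feature, whose median was equal on all arrays, used here as an alternative.

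Using limma 3.58.1 and statmod 1.5.0 in R 4.3.3, with tables read by the data.table package (version 1.17.8), control spots and outlier spots were left out and processed intensities were taken to log2 and quantile normalised. Probes with at least 0.5 of their spots well above background on 1 array or more were tested by lmFit and eBayes, two-sided and without a block, and p-values were adjusted across these probes. Exact permutation tests used all 70 assignments of 4 and 4 arrays. The threshold was 0.05. Only within-array comparisons of *Th* with another gene were adjusted over 8 comparisons.

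RefSeq accessions were named through a table on GRCr8, which paired 21229 of 45598 probes with a symbol; the array design names an older build, so no probe positions are given. Named are all members, the genes of 10 fixed lists where they stand beside a result, and the 5 probes most like *Th*. Some genes of these lists are not reported here, and the list counts and medians leave them out. The members and lists were chosen with earlier results of these data known. The brightest probe stands for a gene that has more than 1. The 4 arrays per group limit the precision, and p-values measure only the spread between these samples, which may be technical in part.

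Alternatives were scaling by the 75th percentile or cyclic loess, normexp background correction (offset 50) on the median signals, 3 other filters on dim probes, the deposited matrix, 3 variance models (intensity trend, robust, array weights), a block for replicate number or side of the slide, other *Ddc* probes and each array left out in turn. The procedure was tested on simulated data.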

Additional observations from a re-analysis of the deposited data

Results flagged for a closer look

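A group of 4 arrays was singled out where its highest or lowest array stood apart from the nearest other by a share of the group's range above Dixon's 95% critical value, a gap that chance gives in about 1 in 20 groups. None of the 18 groups of the 9 dopamine genes did so, where chance gives 0.9. Over those and the genes of the other lists, 7 of 118 groups did, where chance gives 5.9. On AAV-Null replicate 3, *Spr*, the last enzyme of BH4 synthesis, stood apart on the high side (gap of 0.894 of the range). On AAV-αSyn replicate 4, the sulfotransferase gene *Sult1a1* stood apart on the high side (0.895) and the microglial receptor gene *Csf1r* on the low side (0.871). On AAV-αSyn replicate 1, *Gata2* was low (0.898) and the endothelial *Tek* was high (0.837). The gap was 0.855 for *Aldh2* on AAV-αSyn replicate 2, which was high, and 0.874 for the astrocyte gene *Aldh1l1* on AAV-Null replicate 4, which was low.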

How the results depend on the processing

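*Th* and *Slc6a3* kept their direction and an unadjusted p under 0.05 in all 12 processing alternatives and with any 1 array left out. The log2 fold change of *Th* ran from −0.56 to −0.48 over the former (unadjusted p from 3.93e-05 to 0.00281, adjusted p from 0.0754 to 0.599 by limma) and from −0.58 to −0.45 over the latter. That of *Slc6a3* ran from −0.80 to −0.67 and from −1.0 to −0.64. *Slc18a2* kept an unadjusted p over 0.05 in 10 of 12 processing alternatives, such as array weights (−0.19, limma's unadjusted p = 0.154). It was under 0.05 only with normexp (−0.31, 0.0248) and with an intensity trend (0.0376). *Maob* no longer had an unadjusted p under 0.05 with cyclic loess (0.18, limma's unadjusted p = 0.0754) and the deposited matrix (0.18, 0.0515), so the count of members higher was 0 with each. *Th* minus *Gch1* had an exact permutation p of 0.0571 with normexp, the deposited matrix and without AAV-αSyn replicate 1, 2, 3 or 4. Array weights gave 4607 probes with an unadjusted p under 0.05 and 12 past the adjustment, in place of 1908 and 5.

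Leaving out 1 array gave 1439 to 2800 and 3 to 5 such probes, 2 to 4 members lower and 0 to 1 higher, and 0 to 6 of the 8 comparisons with *Th* past the threshold after adjustment (3 to 6 by the unadjusted exact p), the lowest without AAV-αSyn replicate 4. The shift of *Th* ran from −0.83 to −0.65 relative to *Maob*, from −0.63 to −0.51 relative to *Qdpr* and from −0.31 to −0.21 relative to *Ddc*. The log2 fold change of *Pts* ran from −0.014 to 0.069, with −0.014 without AAV-αSyn replicate 1 and −5.17e-05 without AAV-Null replicate 2.

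Same-numbered arrays share a row of the slide, but their deviations correlated by 0.144, 0.267, 0.0406 and −0.0022, and only replicates 1 and 2 matched their own number best, so the numbers are not taken as pairs. With the replicate block, 0 probes were past the adjustment, 0 members were higher (*Maob* 0.20, limma's unadjusted p = 0.0857) and *Ddc* had 0.0634 at an unchanged −0.25. *Th* minus each other gene gave 0 of 8, since 4 pairs allow no exact p under 0.125. With the side as a block, 3 probes were past the adjustment and again 0 of 8 comparisons, since the smallest exact p is 0.0556. The cause of the other changes was not tested.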
